A study of Arabidopsis thaliana with 4 samples.

Results

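Plates TC17 to TC30 of an array of genomic tiles included the 3 highest plate levels of the H4K20me1 log ratio on that array. Tiles are named by plate and well, and the members were all tiles named TC with a plate number from 17 to 30 and a value in both replicates, which gave 1123 of 21743 tiles (5.165%) on 13 of 231 plates. Plate TC26 had no tile. DNA pulled down with an H4K20me1 antibody (IP) was hybridised with INPUT chromatin DNA on 2-colour arrays, in 1 group of untreated Arabidopsis thaliana Col-0 seedlings, 10 days old, grown in liquid MS 0.5X at 22 °C under a 16 h photoperiod. Replicates I and II each filled 2 arrays with exchanged dyes, whose deposited values were identical, so that n = 2. Nothing in the labels names separate cultures for I and II, so the spread between them may be technical. Whole seedlings mix many cell types, so a log ratio is an average over them.

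Histone H4 carries H4K20me1 as a single methyl group on a lysine of its tail. In animals the mark is laid down by the enzyme PR-Set7 and has been tied to chromosome compaction and to the bodies of some genes. In Arabidopsis, immunostaining has placed the monomethylated form in the chromocentres, the condensed domains of the nucleus that hold satellite repeats, ribosomal DNA and transposons. A chromatin immunoprecipitation measures where such a mark lies, as the ratio of IP to INPUT DNA at each tile. No gene, sequence or genome position was assigned to a tile here, so the biology of single loci is not described and every region is a stretch of plate wells.

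The deposited value is a log ratio of unstated base. The channel in the numerator is not stated either, and likely IP over INPUT is the reading adopted only because the upper tail of all tiles was the longer, to which these plates contribute. With the sign turned, every higher level below would be a lower one. Values are given minus the median of their replicate over all tiles, which was -1.42 (replicate I) and -1.15 (replicate II) as deposited. Before centring, the median of the 1123 members was -0.475 (replicate I) and -0.435 (replicate II), and 143 members were above 0 in both, of 247 such tiles on the array. The plates were picked on these same ratios, so their high level is a description without a test.

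The 1123 tiles had median values of 0.942 (replicate I) and 0.713 (replicate II), against -0.0400 and -0.0320 in all other tiles. The difference was 0.86 ± 0.168 (SD, n = 2). Of the members, 1067 lay above the array median in both replicates and 5 below it in both, beside 33.6% of all tiles for each. The lower and upper quartiles were 0.616 and 1.24 in replicate I, and 0.420 and 1.03 in replicate II. The plates were picked for high medians, so these counts only describe them.

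TC13 was the last plate with tiles before TC17 in the order of names, with median values of -0.247 (replicate I) and -0.156 (replicate II) over 34 tiles. TC30, the last member plate, had 0.688 and 0.446. TD01 came next after it, at 0.284 and 0.150. TC00 to TC13, the other plates of the set named TC, had medians of -0.259 and -0.174, so that the members lay 1.04 ± 0.222 (SD, n = 2) above them. The set thus held a low and a high part with 3 plate numbers without tiles between them. As a whole the members were 0.18 ± 0.00483 above TA35 to TA51, the next highest stretch of plates. By plate these stretches overlapped: in the mean of the replicate medians TA43 ranked 4 of 231 plates, and TC23, the lowest member plate, ranked 28.

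Among the 13 plates, TC17 and TC29 stood above the others. TC17 had median values of 1.499 (replicate I) and 1.28 (replicate II), and TC29 had 1.43 and 1.24. TC28 followed at 1.15 and 0.944. A cluster of 6 plates had means of the replicate medians from 0.72 to 0.84. In it, TC18 had 0.964 and 0.721, TC21 had 0.936 and 0.746, and TC20 had 0.944 and 0.636. TC24 had 0.899 and 0.674, TC27 had 0.906 and 0.635, and TC19 had 0.829 and 0.612. The SD of the replicates within a plate ran from 0.120 to 0.218. Only the gaps below TC29 (0.289) and below TC28 (0.204) exceeded the SDs of the plates on both sides, with the same sign in both replicates. All other neighbours in the order were within 0.0744 of each other. These SDs include the offset of replicate I over replicate II, so they do not measure the error of a gap. Of the smaller gaps, those below TC17, TC27, TC19, TC25 and TC30 also had the same sign in both replicates. Those below TC18, TC21, TC20, TC24 and TC22 did not.

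The lowest plates were TC22, TC25, TC30 and TC23. TC22 had median values of 0.732 (replicate I) and 0.561 (replicate II), and TC25 had 0.762 and 0.510. TC30 had 0.688 and 0.446, and TC23 had 0.628 and 0.402. Replicate I was above replicate II in every plate median, by 0.170 to 0.308. With both replicates scaled to the same median absolute deviation, the median of all members became 0.873 in replicate I and 0.774 in replicate II. The order of the plates was shared by the replicates, with a correlation of 0.991 across the 13 plate medians (Spearman 0.956). Without TC17 and TC29 it was 0.968. Plate medians correlated at 0.966 in TA35 to TA51, at 0.680 in TA21 to TA30 and at 0.928 over all other plates, so a shared order was not particular to the members. All plates share arrays and hybridisations.

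**Figure D1:**
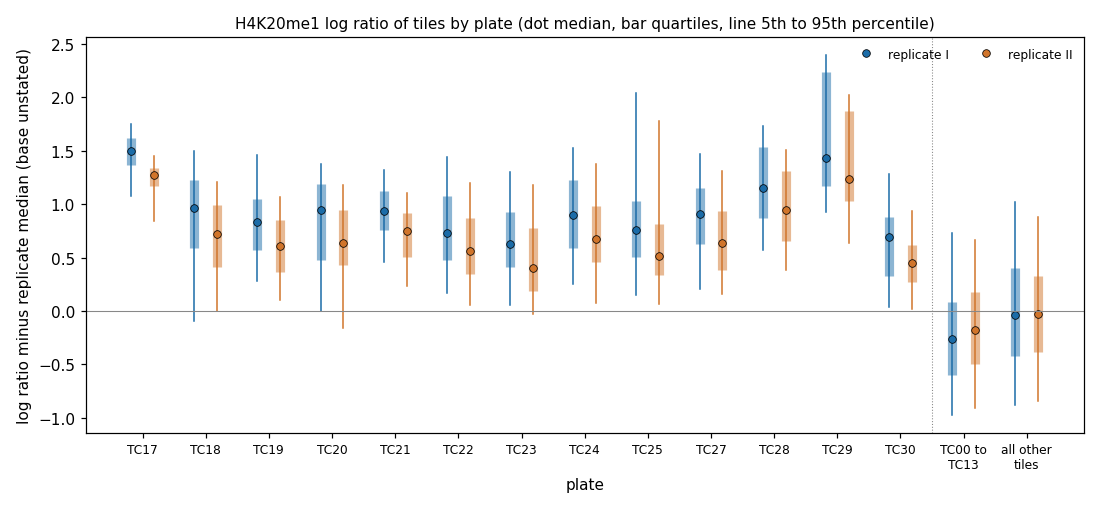
Centred log ratio of tiles (vertical axis, base unstated) by plate for replicates I and II, with dots for medians, bars for quartiles and lines from the 5th to the 95th percentile. All 13 plate medians lie above 0 in both replicates, with TC17 and TC29 highest, while TC00 to TC13 have medians of -0.259 and -0.174.

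Differences between plates accounted for 33.5% of the sum of squares of the tile means within TC17 to TC30, and for 10.3% once TC17 and TC29 were left out. Most of the variation thus lay inside plates. The SD between tiles of one plate ran from 0.212 in TC17 to 0.513 in TC25.

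Single tiles were compared with the array median by limma with Benjamini-Hochberg adjustment over all 21743 tiles (adjusted p at most 0.05, n = 2). Of the 1123 members, 601 were called higher and 0 lower, beside 8.24% of all tiles called higher and 3.88% called lower. At an unadjusted p under 0.05, limma had 825 members higher and 1 lower, and the share over all tiles was not counted there. The rule used this contrast, so the counts describe the plates and are not evidence for them. Scaling the replicates to equal median absolute deviations left 35 of the 601 calls, beside 51 over the whole array. At an adjusted p of at most 0.01 there were 357, beside 872 over the whole array.

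Called tiles were unevenly spread over the plates. In TC17, 58 of 60 tiles were called higher, and in TC29 92 of 96. TC28 had 52 of 70 and TC21 had 59 of 96. In TC30 only 11 of 62 tiles were called, and in TC23 26 of 96. By size, 273 members had a centred ratio over 1 in replicates I and II alike, beside 2.83% of all tiles. TC29 held 71 of these and TC17 held 49, whereas TC30 held 2.

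The highest values of the members came in 4 groups of neighbouring wells, each made of at least 3 consecutive valued wells with a mean of at least 1.8. The limit of 1.8 was chosen with the values known. The groups held 41 tiles, which were all the members with such a mean, beside 0.331% (72 tiles) of the whole array. In replicate I the 41 tiles ran from 1.83 to 2.54 with an average of 2.28 (SD across tiles 0.143). In replicate II they ran from 1.74 to 2.34 with an average of 1.98 (SD 0.128).

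The first group ended plate TC25. It held 4 valued wells, TC25F12 to TC25G05, with levels of 2.33 (replicate I) and 2.05 (replicate II). The empty wells TC25G02 and TC25G04 were passed over, and TC25G05 was the last tile of that plate. The well before it, TC25F11, had 1.16 and 0.967. The step up into the group was thus 1.11 in replicate I and 1.07 in replicate II.

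The second group opened plate TC27, the next plate with tiles. Its 4 wells, TC27A01 to TC27A04, had levels of 2.18 (replicate I) and 2.26 (replicate II). They ended abruptly at TC27A05, with 1.24 and 0.735, a mean step of -1.29 that was the largest between next wells in the 13 plates. Across the numbering gap left by TC26, the last tile of TC25 had 2.27 and 2.02 and the first tile of TC27 had 2.37 and 2.22. The means of these tiles on both sides of the gap differed by 0.147, less than the median step of 0.178 between next wells within rows.

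TC29 held the other two groups. Wells TC29A10 to TC29C06, 21 in a row, averaged 2.29 in replicate I and 1.94 in replicate II. Wells TC29D04 to TC29E03, 12 in a row, averaged 2.297 and 1.93. Between them lay 9 wells, TC29C07 to TC29D03, at 1.38 and 1.19. The 9 wells before the first group, TC29A01 to TC29A09, had 1.27 and 1.16, and the 44 wells from TC29E05 to the end of the plate had 1.20 and 0.977. TC29 thus alternated between a level near 2.11 and a level between 1.09 and 1.29, in means of the replicates.

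The levels of the 4 groups, as means of both replicates, ran from 2.11 to 2.22. They ran from 2.18 to 2.33 in replicate I and from 1.93 to 2.26 in replicate II. Only the TC27 group had replicate II above replicate I. The SD of the replicates in the TC29 groups (0.246 and 0.258) includes the offset of replicate I over replicate II, so it does not measure differences between groups. Within the first TC29 group the SD between tiles was 0.0948 and in the second 0.0903. Across the 21 tiles of the first TC29 group the replicates correlated at 0.508. For the second, r was computed only with the edge well TC29E04 (mean 1.74) added, at 0.513 over 13 wells. That well was the lowest of the 13 in both replicates (1.81 and 1.67), so this r does not describe the 12 wells alone. The r was -0.00756 in the TC25 group and 0.134 in the TC27 group, of 4 tiles each. Over all 41 tiles it was 0.0370, a value that also takes in the reversed order of the replicates in the TC27 group. Small differences between tiles were thus shared in part in the first TC29 group, and the r over 41 tiles does not separate differences within groups from those between groups. Elsewhere on the array 2 groups met the same rule. One was TA38G01 to TA38H12 with 12 wells at 2.14 and 1.804, and the other TA01A06 to TA01A10 with 5 wells at 2.43 and 1.99.

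**Figure D2:**
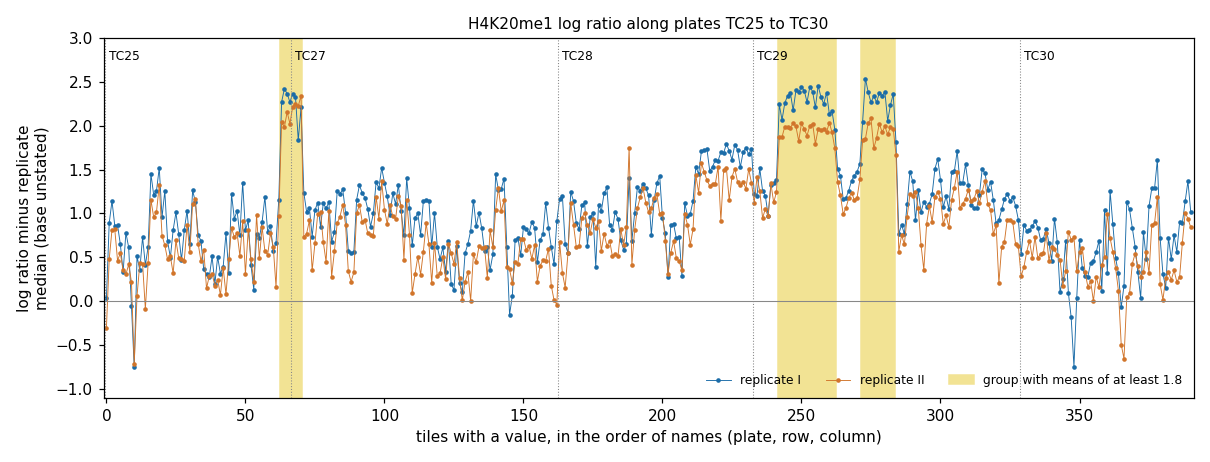
Centred log ratio (vertical axis, base unstated) of each valued tile along plates TC25, TC27, TC28, TC29 and TC30 in the order of names, for replicates I and II, with shading over the 4 groups with means of at least 1.8. The shaded tiles form plateaus in both replicates, from 1.83 to 2.54 in replicate I and from 1.74 to 2.34 in replicate II, with steep edges at TC25F12, TC27A05 and TC29E05.

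The extremes of the members were single wells in these plates and in TC18. TC27A01 had the highest mean, 2.29 ± 0.105 (SD, n = 2), with 2.37 (replicate I) and 2.22 (replicate II). TC27A02 followed with 2.33 and 2.25. The lowest was TC25B03, at -0.752 and -0.709, in which both replicates were low. TC18G06 came next with -0.0521 (replicate I) and -0.967 (replicate II), so its low mean rested on replicate II.

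Other stretches, with ends chosen after the values were seen, lay lower, with averages near 1.4 to 1.5. TC17 began at row D of the plate, and its wells TC17D01 to TC17H03 (51 tiles) averaged 1.52 (replicate I) and 1.28 (replicate II). All 51 were called higher. The SD between tiles was 0.143, and the lowest of them had a mean of 0.960. The last 9 wells, TC17H04 to TC17H12, averaged 1.10 and 0.868, near the mean of 1.13 of TC18A01, the tile that follows.

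TC28 ended on a similar stretch. Its last 21 wells, TC28E02 to TC28F10, averaged 1.66 in replicate I and 1.37 in replicate II, with an SD between tiles of 0.0966. The 49 wells before them averaged 0.959 and 0.791, with an SD of 0.263. Both stretches therefore lay between the level of the plates around them and that of the 4 highest groups. The highest tile mean was 1.66 in the TC17 stretch and 1.65 in the TC28 stretch, and the lowest in the 4 highest groups was 1.85. The limit of 1.8 fixed the floor of those groups, and TC29E04, the well after a TC29 group, had a mean of 1.74.

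**Figure D3:**
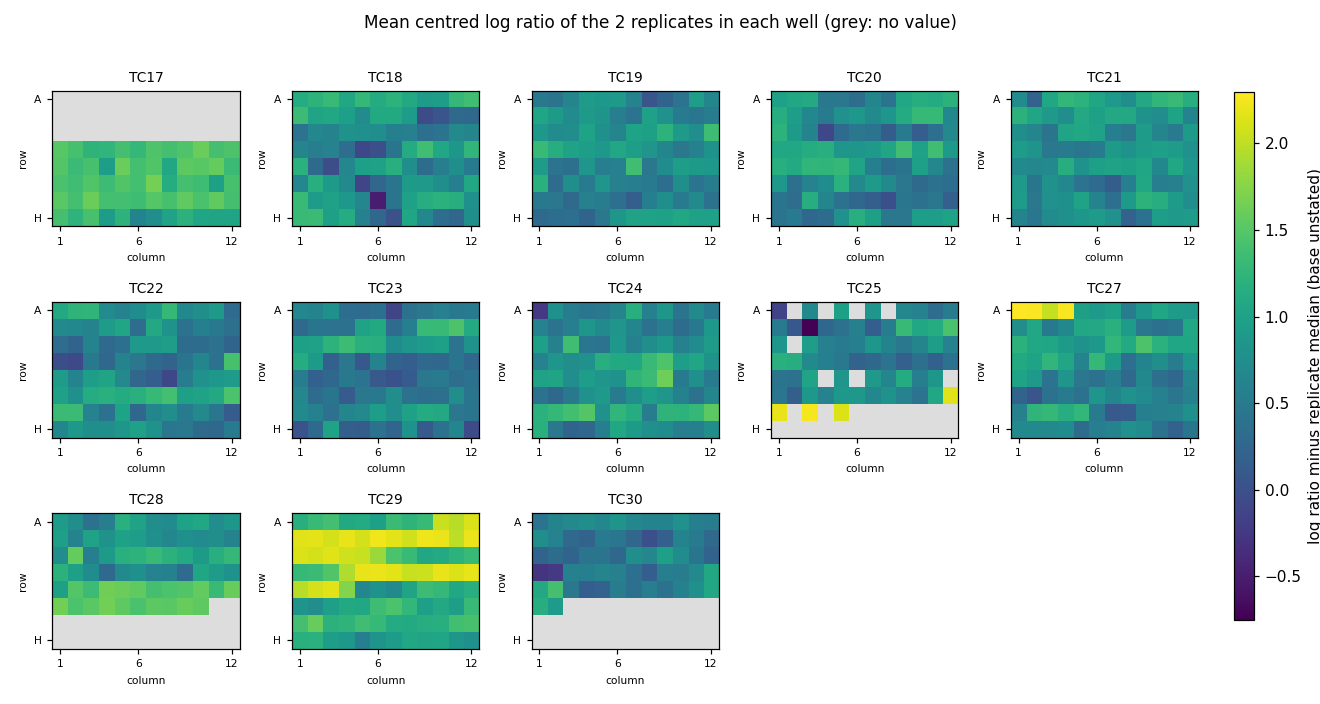
Mean of the centred log ratios of replicates I and II in each well of the 13 plates, with rows from A to H down and columns from 1 to 12 across, in colour from -0.75 to 2.3, and grey for wells with no value. Bands of like colour run along rows, with the highest in TC25, TC27 and TC29 and level ones at 1.4 to 1.5 in TC17 and at the end of TC28.

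Level blocks were counted by a rule that did not ask for a high level: at least 10 consecutive wells of 1 plate whose means span at most 0.5, longest first. The members held 29 such blocks with 399 wells (35.5% of the tiles), and all other plates held 122 with 1506 wells (7.30%). TA35 to TA51 had 26 blocks with 21.4% of its wells, and TC00 to TC13 had 3 with 2.65%. The longest member blocks had 21 wells, against 35 elsewhere. Levels of the member blocks ran from 0.348 to 2.11, so stretches level in the mean were found at low as well as high ratios. Within a block the r of the replicates ran from -0.511 (TC19F06 to TC19G06) to 0.760 (TC21C07 to TC21D06), so some blocks were level only in the mean. The SD of replicate I minus II in the members was 0.402 at means from 0 to 0.5 and 0.177 at means from 1 to 1.5. Its part in the block counts was not tested.

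The number of blocks moved with the rule. A span of at most 0.4 gave 15 blocks in the members and 48 elsewhere, and taking wells column by column gave 3 and 42. Of the 29 blocks, 13 had a level of at least 1, with 16.5% of the member wells, against 10 blocks with 0.669% of the wells elsewhere. Each of the 13 plates held from 1 to 3 blocks. TC21 had 3, at 0.888, 0.642 and 0.886, and TC23 had 3 at unlike levels.

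TC23 shows how levels changed inside a plate with a low median. Wells TC23B09 to TC23D02 (18 tiles) averaged 1.10 in replicate I and 0.994 in replicate II. The 20 wells before them had 0.496 in both replicates, and the 34 wells after them, TC23D03 to TC23F12, had 0.469 and 0.262. TC18 changed the other way: its first 20 wells averaged 1.28 and 0.945, the next 4 wells, TC18B09 to TC18B12, 0.225 and 0.0742, and the 16 wells from TC18C01 to TC18D04 0.660 and 0.515. In TC22, the 14 wells TC22F01 to TC22G02 averaged 1.33 and 0.988 and all were called higher.

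Low stretches within the members were short. There were 8 runs of at least 3 consecutive wells with means under 0.3, with 25 wells on 5 plates, and the longest had 4 wells. The limit of 0.3 was chosen with the values known, and such runs were not counted on other plates. The plates were picked as high, so the small number of low wells only describes them. TC25B02 to TC25B04 had the lowest mean level, -0.12, with -0.0959 (replicate I) and -0.143 (replicate II), and TC25B03 was the only one of its tiles with a mean under 0. TC30C12 to TC30D02 followed at 0.142 and -0.343. In replicate I the lowest run was TC30B07 to TC30B09, at -0.298 beside 0.589 in replicate II, so the replicates did not order these runs alike. Means under 0 were held by 19 members (1.692%), whereas the median of the tile means over the whole array was -0.0104. TC18 held 6 of the 19, and TC22 and TC30 held 3 each.

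Levels followed the rows of the plates. With plate medians removed, the means of next wells in a row correlated at 0.641 over 1018 pairs. Wells 2 apart in a row correlated at 0.467, and a well and the one below it in the next row at 0.0243. They were 0.681, 0.498 and 0.0727 in TA21 to TA30, 0.615, 0.447 and 0.0486 in TA35 to TA51, and 0.412, 0.204 and 0.0121 in all tiles outside TC17 to TC30. The likeness along rows was therefore of similar size in the other high stretches. A well in replicate I correlated with its neighbour in replicate II at 0.481 in the members, at 0.439 in TA35 to TA51 and at 0.162 in all other tiles. The pairs share plate and array, and next wells also shared their difference between replicates (r = 0.368 in the members and 0.353 in the others), so part of the likeness of neighbours within a replicate was not shared between replicates.

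Levels were also compared across the ends of plates. Between the last well of a plate and the first of the next plate with tiles, the median step in mean was 0.242 over 12 junctions, against a median of 0.178 between next wells within rows. From TC19H12 to TC20A01 the values were 0.974 and 1.01 followed by 1.01 and 0.966 in replicates I and II. From TC23H12 to TC24A01 both means were below 0, at -0.0486 and -0.244. The widest step was 0.886, from TC24H12 to TC25A01.

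Replicates I and II were correlated across the 1123 tiles, which are no independent points, with a Pearson's r of 0.787, against 0.755 in TA35 to TA51 and 0.471 in all other tiles. Plates were chosen for high values in both replicates and differ in level, and with plate medians removed r was 0.698, against 0.709 in TA35 to TA51 and 0.355 in all other tiles. The correlation was thus of like size in another high stretch. By plate it ran from 0.388 in TC30 to 0.942 in TC29. TC25 had 0.923, TC20 had 0.474 and TC19 had 0.442.

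**Figure D4:**
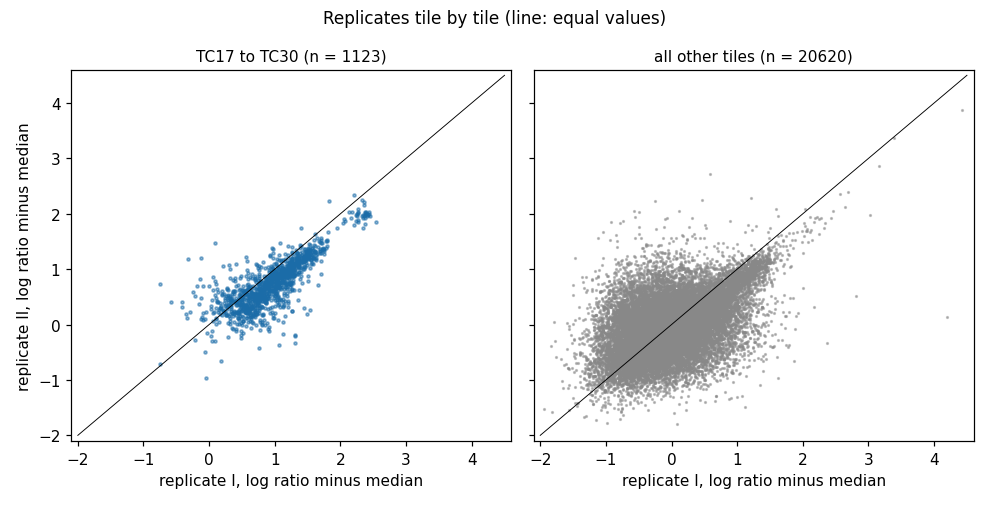
Centred log ratio of each tile in replicate I (horizontal axis) and replicate II (vertical axis) in TC17 to TC30 on the left and in all other tiles on the right, with a line of equal values. Most member points lie below the line, and the 41 tiles of the highest groups form a cloud of their own at averages of 2.28 and 1.98.

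The spread across tiles of the difference between the replicates was no part of the rule, although the plates were picked as high in both replicates, so it is given without a test. The SD across tiles of replicate I minus replicate II was 0.315 in the members, 0.350 in TA35 to TA51, 0.485 in TA21 to TA30 and 0.573 in all other tiles. By plate it ran from 0.140 in TC17 to 0.430 in TC20, with a median of 0.291, and the 218 other plates ran from 0.234 to 0.803 with a median of 0.561. All 13 plates lay under that median, and 30 other plates lay under the highest of the 13. The 3 lowest of all 231 plates were TC17, TC29 and TC21. A difference of more than 1 between the replicates was found in 18 members (1.603%) and in 1760 other tiles (8.535%).

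This spread moved with the level, so it was also compared at like means. For means from 0.5 to 1 it was 0.318 in 465 members and 0.534 in 2397 other tiles, and for means from 1 to 1.5 it was 0.177 in 307 members and 0.382 in 517 others. The median absolute deviation, which single far tiles move less, was 0.152 in members and 0.197 in others for means from 0.5 to 1 and 0.0908 and 0.129 for means from 1 to 1.5. For means from -0.5 to 0 the SDs were 0.5995 and 0.577, but only 17 members lay there. The spot brightness behind each ratio was not used here, and its part in the spread was not tested.

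**Figure D5:**
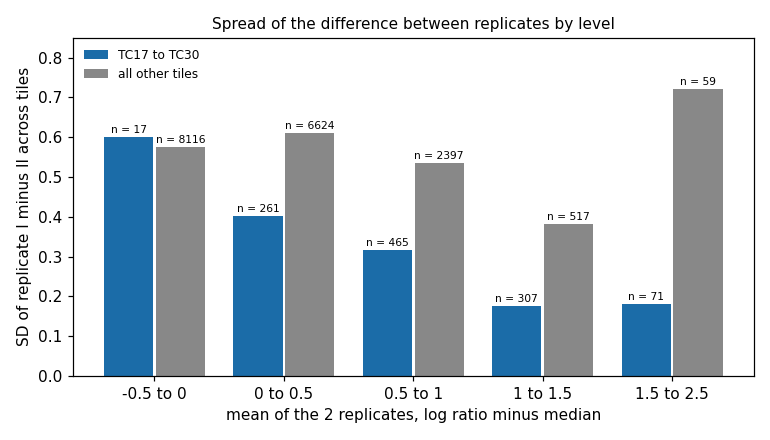
SD across tiles of replicate I minus replicate II (vertical axis) by the mean of the replicates (horizontal axis, 5 ranges), for TC17 to TC30 and for all other tiles, with the number of tiles above each bar. From means of 0.5 upward the bars of the members are at most 0.318, against at least 0.382 in the others, and the 17 members from -0.5 to 0 have 0.5995.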

How the data were processed

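The deposited series table was the only file used. Its values are a score, treated as a log ratio of unstated base, and the authors gave 1 value per spot and array. Per the labels' protocols, amplified DNA was labelled directly with Cy3 and Cy5, and what scanner, background correction, normalization and genome build were used is not given in the sources used here. Of 21800 spots, 21743 tiles had a value. Arrays of a dye swap held equal values and counted as 1 replicate. The median over tiles was subtracted in each replicate, without loess or quantile normalization. Tiles were tested with limma 3.58.1 in R 4.3.3 (intercept, eBayes without trend or robust options, two-sided, Benjamini-Hochberg over all tiles, prior degrees of freedom 21.66), and the test was run on simulated data first. Level blocks, groups, segments and correlations were computed with Python 3.11.15, numpy 2.4.6 and pandas 2.3.3, in the order of names, passing over wells without a value. The members, rules and lists were chosen with earlier results of these data known. Named single tiles were the 2 highest and 2 lowest means among the members, and other tiles appear as ends of stretches. No depth exists for arrays, whose number limits the precision. Alternatives covered centring, scale, prior, threshold, block rules and single replicates.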

Additional observations from a re-analysis of the deposited data

How the results depend on the processing

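Of 37 alternatives for 8 results, 24 kept a count within 1.5 times or a value within its error. For the differences of medians, a single replicate lies within the SD of both replicates by construction. Those alternatives are among the 24 and say nothing on stability. The 601 tiles called higher became 357 at an adjusted p of at most 0.01, 41 with no centring and 35 with equal median absolute deviations. Over the whole array, 1792 became 872, 68 and 51 in the same order. The 41 members called with no centring were the tiles of the 4 highest groups, and the 35 were among them. The 0 called lower (limma, 1 at an unadjusted p under 0.05) became 456 with no centring and 1 with a trend and robust prior. Over the whole array, 844 called lower became 18973 and 1549, of 21743 tiles. The correlation of the replicates (0.787) was 0.698 with plate medians removed. The share of variance between plates (33.5%) was 10.3% without TC17 and TC29 and 29.8% to 30.3% in single replicates. The 29 level blocks became 48 with at least 8 wells, 15 with a span of at most 0.4, 3 column by column, and 16 to 24 in single replicates. The difference of the members from all other tiles was 0.745 to 0.982 in single replicates and 0.779 without TC17 and TC29, and that from TC00 to TC13 was 0.887 to 1.20. The groups with means of at least 1.8, with alternatives added after the data were seen, were 4 to 6 in single replicates. A stricter threshold, a narrower span or shorter blocks change a count by construction, and for the other changes the cause was not tested. No paired analysis was possible because IP and INPUT formed 1 group of ratios. With 1 replicate limma has no residual degrees of freedom, so tile calls were not made there. Dye effects could not be assessed from identical columns, nor signal over background from ratios.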

Other observations

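TC25 held 10 of the 18 tile names on the array that had no value. All 10 stood in rows A, C, E or G and even columns, of 20 TC25 tiles listed in such wells. The 14 tiles beside an empty well had median values of 0.993 (replicate I) and 0.793 (replicate II), and the other 53 tiles of the plate had 0.687 and 0.480. This split was chosen after the values were seen and was not tested.

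Wells in odd rows and odd columns of TC17 to TC30 lay 0.0333 above the mean of their plate in replicate I and 0.0800 above it in replicate II. Wells in even rows and odd columns lay at 0.00311 and -0.0668. The 4 interleaved grids of wells, of 274 to 285 member tiles each, lay from -0.0314 to 0.0333 around the plate mean in replicate I. In replicate II they lay from -0.0668 to 0.0800. In all other tiles the 4 grids lay from -0.0160 to 0.0112 in replicate I, and from -0.0136 to 0.00813 in replicate II. Those grids held from 5142 to 5163 tiles each, so the ranges are not on a like footing, and stretches of similar size were not compared.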
